A study of Homo sapiens with 8 samples.

Results

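Loss of mir-141 was examined in SK-BR-3 cells that already lacked mir-200c, by setting the double knockout against the mir-200c knockout. The SK-BR-3 line comes from a human breast carcinoma, is widely used and carries an amplified ERBB2 gene. The microRNA genes were removed with TALENs, designed pairs of nucleases that cut at a chosen site. The double knockout (mir-141 and mir-200c removed) was represented by clone 55 in experimental set 1 and clone 61 in set 2. The mir-200c knockout was represented by clone 11 in set 1 and clone 29 in set 2. These 4 libraries, of 8 in the series, were used for the main comparison. The mir-141 knockout (clone 23 in set 1, clone 10 in set 2) and the wild-type cells of each set served as a second measure of loss of mir-141, in cells that keep mir-200c. Every library is thus 1 clone or the parental cells of 1 set, and differences between clones and effects of the knockout cannot be told apart within a set.

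The deposited values are log2 ratios of a knockout clone to the wild type of its own set, for 9245 mRNA entries. Subtracting the ratio of the mir-200c knockout from that of the double knockout cancels the wild type, so the difference compares those 2 clones alone. A difference of 1 is a doubling in the double knockout relative to the mir-200c knockout. All entries were taken, without selection by value. The depth of each library is unknown, because ratios carry no counts. The targeted microRNAs were not analysed here, so the knockouts could not be checked in these libraries.

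mir-141 and mir-200c belong to the mir-200 family, which epithelial cells express and which is known for repressing the transcription factors that drive the mesenchymal state. A microRNA guides Argonaute proteins to messages whose 3′ untranslated region (UTR) pairs with its seed, bases 2 to 8, and lowers their level or translation. Removal of a microRNA is therefore looked for as a rise of messages with seed matches. Both genes are neighbours on chromosome 12 and are transcribed together.

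The mature sequences are shown because the comparison turns on the seed of mir-141-3p. They are given 5′ to 3′ from RefSeq (GRCh38.p14, plus strand), with the seed in capitals.
hsa-miR-141-3p: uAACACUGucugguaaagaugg
hsa-miR-200a-3p: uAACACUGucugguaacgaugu
hsa-miR-200c-3p: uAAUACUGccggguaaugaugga
hsa-miR-141-3p lies at chr12:6964155-6964176, hsa-miR-200c-3p at chr12:6963742-6963764 and hsa-miR-200a-3p at chr1:1167916-1167937. The seeds of mir-141-3p and mir-200c-3p differ by C4U, counted from the 5′ end of mir-141-3p. The seed of mir-141-3p is shared by mir-200a-3p, which is encoded on chromosome 1 and was not targeted. Those 2 mature sequences differ at 2 bases outside the seed, A17C and G22U.

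Values of set 2 need care before any result. Across all rows, the double-knockout ratios of both sets had a Spearman correlation of 0.014, and those of the mir-200c knockout 0.020. When windows of 500 rows of set 1 were slid along set 2 by up to 200 rows either way, 28 of 35 windows for the double knockout correlated best at an offset within 15 rows, and 24 of 35 for the mir-200c knockout. In 0 of the 35 windows was the best offset 0. Rows of set 2 may therefore stand beside wrong names. Set 1 is treated as the main set, and the values of single genes below are from set 1 unless set 2 is named. The few set 2 values that use gene names are given as listed, and no row was moved.

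In set 1 the difference between the double and the mir-200c knockout had a median of -0.00025 and a standard deviation (SD) of 0.357 across genes, with quartiles of -0.18 and 0.17. Of the 9245 entries, 88 (0.952%) lay above 1 and 76 (0.822%) below -1, together 164 (1.77%). At the smaller size of 0.5, 499 (5.4%) lay above and 502 (5.43%) below. UBE2E2 at 1.01 was the last entry counted above 1, with the immediate early gene FOS at 0.996 just outside. RARRES3 at -1.001 was the last counted below -1, with NQO2 at -0.998 just outside. Set 2, counted by row without using names, had 107 rows (1.16%) above 1 and 59 (0.638%) below -1. Of the 164 genes beyond 1 in set 1, 88 (53.7%) had the same sign in set 2 as listed, against 50.9% of all genes.

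A large difference arose in several ways. Of the 88 genes above 1, 20 were below -1 in the mir-200c knockout and within 0.5 of wild type in the double knockout. For 14 of them, the double knockout was above 1 and the mir-200c knockout within 0.5 of wild type. In 22, the double knockout was above 0.5 and the mir-200c knockout below -0.5. Of the 76 genes below -1, 20 were above 1 in the mir-200c knockout and within 0.5 of wild type in the double knockout, while 14 were below -1 in the double knockout with the mir-200c knockout within 0.5.

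The set 1 difference alone rests on 1 library per genotype and has no replicate check. Across both sets, limma with the set as a block called 0 of 9245 genes (0%), with a smallest Benjamini-Hochberg adjusted p of 1.00 and 233 genes at an unadjusted p under 0.05. Without the replicate block and without the wild types it also called 0, with 45 at an unadjusted p under 0.05. These fits join values of both sets by the listed names, which are in doubt. No gene below is called as changed, and the gene values describe the libraries. In bulk RNA, a gene lower in every cell and a gene expressed by fewer cells cannot be told apart.

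Among the 15 highest differences, some genes stood out through the double knockout. STAC2, an adaptor of voltage-gated calcium channels (chromosome 17, 39210536 to 39225872), had a log2 ratio to wild type of 2.17 in the double knockout and -0.79 in the mir-200c knockout, a difference of 2.95. S100A7 (psoriasin, a calcium-binding protein of squamous epithelia; chromosome 1, 153457744 to 153460701) had 2.05 in the double knockout and -0.43 in the mir-200c knockout. CGA, the common alpha subunit of glycoprotein hormones (chromosome 6, 87085498 to 87095406), had 2.06 in the double knockout and -0.01 in the mir-200c knockout. In these 3 genes the double knockout stood far above wild type, and the mir-200c knockout was at or below it.

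For other genes the mir-200c knockout was the low one. STS, steroid sulfatase, which frees active steroids from their sulfates, had 0.78 in the double knockout and -2.03 in the mir-200c knockout. CPS1, the mitochondrial carbamoyl phosphate synthetase of the urea cycle, had 0.29 in the double knockout and -2.02 in the mir-200c knockout. C11orf86 had 0.86 in the double knockout and -2.31 in the mir-200c knockout. MFSD7 had 0.27 in the double knockout and -1.91 in the mir-200c knockout. S100A3 had 1.14 in the double knockout and -1.55 in the mir-200c knockout. These 5 genes lay between 0.27 and 1.14 in the double knockout and below -1.5 in the mir-200c knockout.

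CDK18, a cyclin-dependent kinase of the PCTAIRE group, had 1.37 in the double knockout and -1.17 in the mir-200c knockout. MZB1, an endoplasmic reticulum chaperone best known in B lineage cells, had 1.03 in the double knockout and -1.12 in the mir-200c knockout. PLXDC2, a plexin-domain membrane protein, had 1.01 in the double knockout and -0.99 in the mir-200c knockout. In these 3 genes the clones stood on opposite sides of wild type. PLTP, the phospholipid transfer protein, had 1.56 and SPOCK1, an extracellular proteoglycan, 1.27 in the double knockout, against -0.43 and -0.62 in the mir-200c knockout. The top rank belonged to the histone gene HIST1H2BH, at -1.16 in the double knockout and -4.60 in the mir-200c knockout, and HIST2H3D was also among the 15 highest at a difference of 2.02. Both have near-identical copies and are uncertain.

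Among the lowest differences, the double knockout itself was far below wild type in several genes. KHNYN, a cofactor of the antiviral protein ZAP (chromosome 14, 24429286 to 24441834), had -3.12 in the double knockout and 0.91 in the mir-200c knockout. IGFBP2, a secreted binding protein of insulin-like growth factors, had -3.27 in the double knockout and -0.90 in the mir-200c knockout. P2RX5, an ATP-gated ion channel, had -2.86 in the double knockout and -0.59 in the mir-200c knockout. PARVB, beta-parvin, which links integrins to actin at focal adhesions (chromosome 22, 43999211 to 44172949), had -2.24 in the double knockout and 0.22 in the mir-200c knockout. In these genes the double knockout was below wild type by a log2 of more than 2, and the mir-200c knockout was within 1 of it.

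SNRPN, which encodes a small nuclear ribonucleoprotein, had the lowest difference, -4.12, from -3.20 in the double knockout and 0.92 in the mir-200c knockout. It overlaps other transcripts of its locus, and its reads may be shared with them. MUC5B, a gel-forming mucin, was low in both clones, at -3.71 in the double knockout and -1.98 in the mir-200c knockout. NSMAF, an adaptor linked to neutral sphingomyelinase that lies in a block of chromosome 8 described below, was low in both as well, at -3.62 in the double knockout and -0.996 in the mir-200c knockout. For other genes of this end the mir-200c knockout was the high one. TAGLN, the smooth muscle actin-binding protein transgelin, had -0.41 in the double knockout and 2.08 in the mir-200c knockout. PPP1R14C, an inhibitor of protein phosphatase 1, had -0.14 in the double knockout and 1.94 in the mir-200c knockout. CST6, a secreted cysteine protease inhibitor, had -0.15 in the double knockout and 1.73 in the mir-200c knockout. BMP7, a growth factor of the TGF-beta family, had -0.47 in the double knockout and 1.23 in the mir-200c knockout. In these 4 genes the mir-200c knockout was above wild type and the double knockout was within 0.5 of it. WLS, the carrier of Wnt proteins, EYA2, a developmental coactivator, MGP, a matrix calcification inhibitor, and SCGB2A2, mammaglobin, completed the 15 lowest, with differences between -2.10 and -1.94. These 4 lay between -1.73 and -1.20 in the double knockout and between 0.27 and 0.87 in the mir-200c knockout, so the double knockout was the clone farther from wild type.

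**Figure D1:**
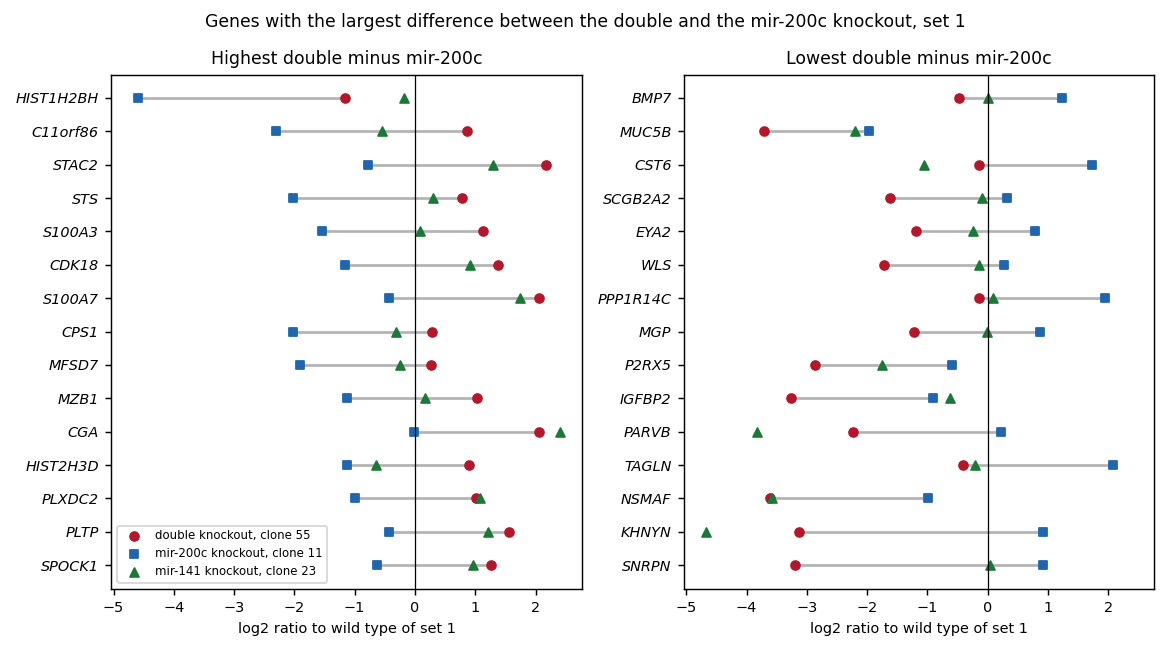
Log2 ratios to the wild type of set 1 (horizontal axis) for the 15 genes with the highest and the 15 with the lowest difference between the double and the mir-200c knockout. Circles are the double knockout, squares the mir-200c knockout and triangles the mir-141 knockout, each 1 library. In STAC2, S100A7, CGA and PLTP, and in KHNYN, PARVB and NSMAF, the circle and the triangle lie beyond 1 on the same side of wild type. In TAGLN, PPP1R14C and CST6 the square lies above 1 and the circle near 0.

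Loss of mir-141 in cells that keep mir-200c gave a second measure. The mir-141 knockout and wild type of set 1 share no library with the double and mir-200c knockouts once wild type has cancelled, and the comparison within a set does not need the names of rows. In the mir-141 knockout of set 1, 54 genes (0.584%) lay above 1 and 52 (0.562%) below -1. Across all genes both contrasts had a Pearson correlation of 0.181 and a Spearman correlation of 0.084 in set 1, and 0.235 and 0.241 in set 2 by row. Of the 164 genes beyond 1, 114 (69.5%) had the same sign in the mir-141 knockout, against 51.8% of all genes. In set 2 by row the same sign was found in 118 of 166 (71.1%), against 59.7% of all rows. Genes are not independent replicates, and these shares describe the libraries.

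Few genes were large in both contrasts. Of the 9245 genes of set 1, 14 were above 1 in both and 11 below -1 in both. Another 7 were above 1 in the double knockout relative to the mir-200c knockout and below -1 in the mir-141 knockout relative to wild type. The other way was found in 1 gene. At 0.5, 99 genes (1.07%) were above in both and 58 (0.627%) below in both, against 29 and 22 with opposite directions. The genes ranked by the smaller of their 2 contrasts are given next.

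On the high side, CGA led with a difference of 2.07 between the double and mir-200c knockouts and a ratio of 2.41 in the mir-141 knockout. S100A7 followed with a difference of 2.48 and a ratio of 1.75 in the mir-141 knockout. OLFM4, a secreted glycoprotein of mucosal epithelia, had 4.43 in the double knockout and 2.98 in the mir-200c knockout, a difference of 1.44, and 2.76 in the mir-141 knockout. It was high in all 3 clones, and highest in the double knockout. GTSF1, a factor of the piRNA pathway, had 0.95 in the double knockout and -0.36 in the mir-200c knockout, with 1.43 in the mir-141 knockout. STAC2 had 1.30, PLTP 1.21, PLXDC2 1.08 and PDE4B, a cyclic AMP phosphodiesterase, 1.09 in the mir-141 knockout. CX3CR1, the fractalkine receptor, had 1.61 in the double knockout and 0.31 in the mir-200c knockout, with 1.21 in the mir-141 knockout. CAV1, the main protein of caveolae, had 2.00 in the double knockout and 0.68 in the mir-200c knockout, with 1.07 in the mir-141 knockout. HIST1H2AD (uncertain because of near-identical copies) and ZADH2, which lies in the block of chromosome 18 described below, completed the 12.

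On the low side, KHNYN led with a difference of -4.04 and a ratio of -4.68 in the mir-141 knockout. NSMAF had a difference of -2.62 and -3.57 in the mir-141 knockout. PARVB had a difference of -2.46 and -3.82 in the mir-141 knockout. In KHNYN and PARVB the mir-200c knockout was the clone near or above wild type. FBP1, the gluconeogenic enzyme fructose-1,6-bisphosphatase, had -8.51 in the double knockout, -7.01 in the mir-200c knockout, with -6.08 in the mir-141 knockout, so all 3 clones were far below their wild type. P2RX5 (-1.75 in the mir-141 knockout), MUC5B (-2.19), CD40, a receptor of the TNF family (-1.44), PODXL, a sialomucin (-1.56), COL18A1, a basement membrane collagen (-1.17), ACSF3, a mitochondrial malonyl-CoA synthetase (-1.13), CST6 (-1.05) and SPDYC (-2.55) completed the 12.

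An additive model of both losses in the 4 libraries of set 1 used these 2 contrasts as 2 values of mir-141 loss. Its standard errors and p-values rest on how far those contrasts differ and not on replicates. limma called 0 of 9245 genes (0%), with 587 at an unadjusted p under 0.05 and 1 residual degree of freedom. KHNYN had the smallest adjusted p, 0.0616, at an estimate of -4.36 ± 0.20 (standard error), lower in 2 of 2 contrasts. CGA was next at 2.24 ± 0.15 (standard error) and an adjusted p of 0.186 in the limma fit, higher in 2 of 2 contrasts. The same model in set 2 called 0 rows (0%), with a smallest adjusted p of 0.235 and 770 at an unadjusted p under 0.05. Whether loss of mir-141 differed between cells with and without mir-200c was tested in limma as an interaction over both sets, and 0 genes (0%) passed, with 157 at an unadjusted p under 0.05.

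**Figure D2:**
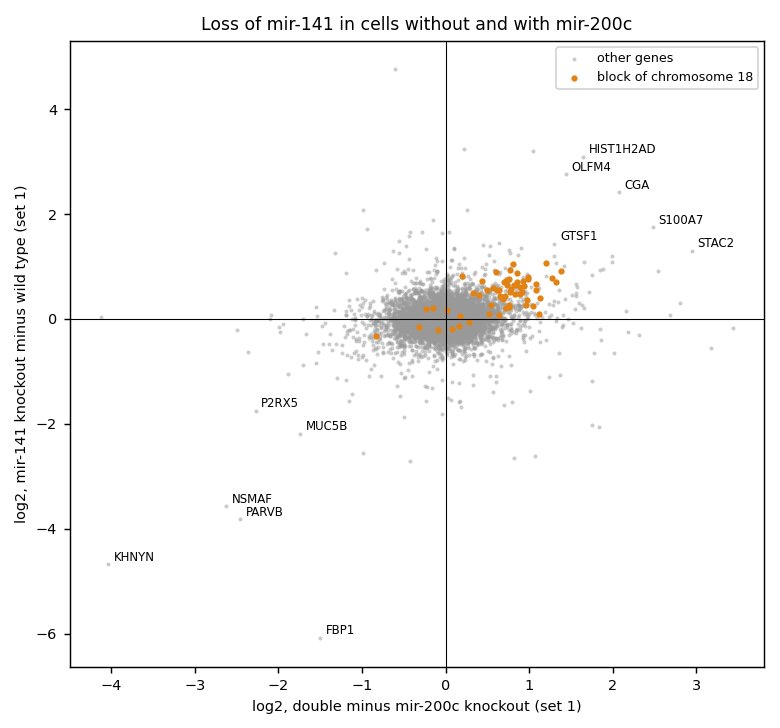
Each point is 1 gene of set 1, with the log2 difference between the double and the mir-200c knockout on the horizontal axis and the log2 ratio of the mir-141 knockout to wild type on the vertical axis. Orange points are the 59 genes of the block of chromosome 18, most of which lie above 0 on both axes. KHNYN, PARVB, NSMAF and FBP1 stand apart at the lower left and CGA, S100A7, OLFM4 and STAC2 at the upper right, while the cloud as a whole shows a weak relation (Pearson 0.181).

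Messages with seed matches of mir-141-3p were examined next. A match was the 7-base CAGTGTT (or its 8-base form CAGTGTTA, or the 7-base AGTGTTA) on the coding strand of the longest annotated 3′ UTR, GENCODE 29 on GRCh38. Of 9203 entries with a 3′ UTR, 1347 held matches of mir-141-3p only, 1181 of mir-200c-3p only, 1042 of both and 5633 of neither. The 6 genes with an 8-base match that ranked highest by the smaller of both mir-141 contrasts are shown with 24 bases around 1 match each, the match in capitals.
IER3IP1: tatctgattgctCAGTGTTAatag
RFTN1: tcattaatgaccCAGTGTTAgaat
ZNF778: agccttggggagCAGTGTTAtgat
EPHA2: tttctattctgtCAGTGTTAaaga
SMAD2: tcagcatttattCAGTGTTAgata
ABL2: gtgaactgctaaCAGTGTTAaact
They lie at chr18:47155923-47155946 (minus strand), chr3:16316603-16316626 (minus), chr16:89235673-89235696 (plus), chr1:16124450-16124473 (minus), chr18:47837963-47837986 (minus) and chr1:179099439-179099462 (minus), in that order. A match describes the letters of the UTR and does not show a working site.

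RFTN1, raftlin, a lipid raft protein, had 1.24 in the double knockout and -0.32 in the mir-200c knockout, a difference of 1.56, and 0.67 in the mir-141 knockout. EPHA2, an ephrin receptor tyrosine kinase, had 0.62 in the double knockout and 0.01 in the mir-200c knockout, with 0.63 in the mir-141 knockout. ABL2, a tyrosine kinase that acts on actin, had 0.82 in the double knockout and 0.27 in the mir-200c knockout, with 0.65 in the mir-141 knockout. ZNF778, a zinc finger protein, had 0.59 in the double knockout and -0.03 in the mir-200c knockout, with 0.62 in the mir-141 knockout. In EPHA2, ABL2 and ZNF778 both contrasts lay between 0.55 and 0.65. IER3IP1, a protein of the secretory pathway, had 1.09 in the double knockout and 0.11 in the mir-200c knockout, with 0.76 in the mir-141 knockout. SMAD2, a signal transducer of TGF-beta and activin, had 1.10 in the double knockout and 0.49 in the mir-200c knockout, with 0.90 in the mir-141 knockout. IER3IP1 and SMAD2 lie in the block of chromosome 18, whose genes as a whole were high in both contrasts. The 6 genes were picked by the smaller of both contrasts, so high values in both follow from the choice. Each of them except EPHA2 also held matches of mir-200c-3p. KHNYN and PARVB, 2 of the lowest genes, also held an 8-base match of mir-141-3p.

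Genes with matches as a whole differed little. The mir-141-3p score of a library, the mean log2 ratio of genes with matches of mir-141-3p only minus that of genes with neither, was 0.0448 in the double knockout and 0.0144 in the mir-200c knockout of set 1, a difference of 0.0304. In set 2 as listed it was -0.00545 in the double knockout and 0.00496 in the mir-200c knockout, a difference of -0.0104. The mean over both sets was 0.00998, with an exact two-sided permutation p of 1.0 among 4 arrangements, where the smallest possible p is 0.5. The mir-141 knockout of set 1 scored 0.0144 against wild type.

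In set 1, genes with matches of mir-200c-3p only gave a difference of 0.0124 between both clones, although both clones are labelled as lacking mir-200c, and genes with matches of both gave 0.0496. Matches of microRNAs with other seeds, sought among the genes with neither, gave 0.00800 for mir-122-5p, 0.0169 for mir-1-3p and 0.0209 for mir-9-5p. The median 3′ UTR was 2227 bases in genes with matches of mir-141-3p only and 778 bases in genes with neither. Among genes with short, middle and long UTRs, in classes of equal size, the difference was 0.0311, 0.0263 and 0.0157. Of the 463 genes with 1 8-base match, 57.5% lay above 0 (50% of all genes), with a median difference of 0.05. Of the 37 genes with 2 or more, 59.5% did, with a median of 0.03. These groups include genes that also hold mir-200c-3p matches. Their median 3′ UTRs were 3235 and 4589 bases, against 1223 in genes without an 8-base match. By class, the shares above 0 were 51.7% (mir-141-3p only), 51.6% (mir-200c-3p only), 55.5% (both) and 48.2% (neither).

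**Figure D3:**
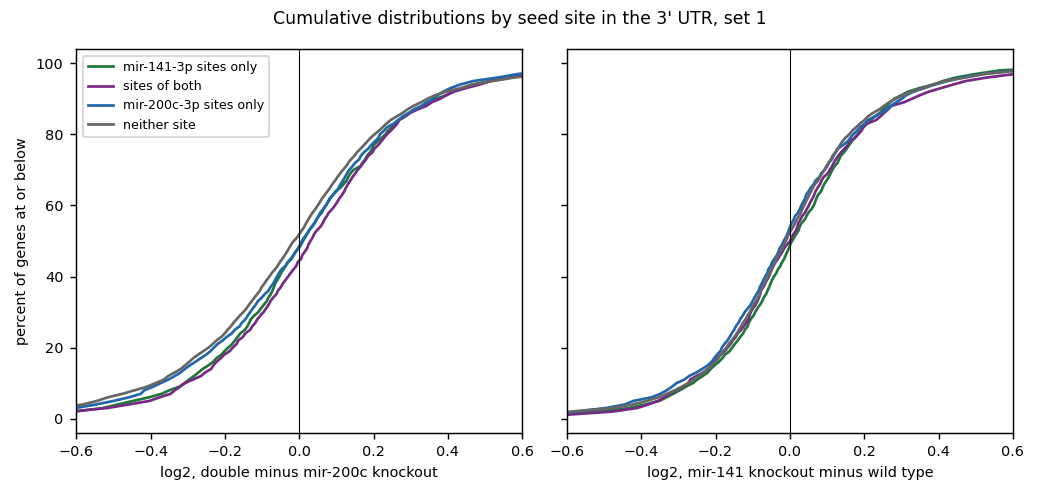
Cumulative distributions in set 1 of the log2 difference between the double and the mir-200c knockout (left) and of the log2 ratio of the mir-141 knockout to wild type (right), for genes with 3′ UTR matches of mir-141-3p only (1347), of both (1042), of mir-200c-3p only (1181) and of neither (5633). The vertical axis is the percent of genes at or below a value. On the left, the middle of each curve of genes with matches lies slightly right of that of genes with neither, and the curves cross toward the upper end. The medians are 0.01 (mir-141-3p only), 0.03 (both), 0.01 (mir-200c-3p only) and -0.01 (neither).

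Targets reported in the literature for mir-141 or for its seed partner mir-200a had a median difference of 0.17 in set 1. Of 20 measured members, 13 lay above 0 (50% of all genes) and 3 above 0.5 (5.4% of all genes). In the mir-141 knockout 11 of 20 lay above 0 (48.1% of all genes), with a median of 0.10. The sign was the same in both contrasts for 8 of 20 (51.8% of all genes). E2F3, a cell cycle transcription factor, had 0.26 in the double knockout and -0.72 in the mir-200c knockout, a difference of 0.97, with 0.10 in the mir-141 knockout. PHLPP1, a phosphatase of AKT, had 0.62 in the double knockout and -0.03 in the mir-200c knockout, with 0.45 in the mir-141 knockout, and it lies in the block of chromosome 18. The deacetylase gene SIRT1 differed by 0.17. KEAP1, MAPK14, BRD3 and UBAP1 were at the low end, between -0.30 and -0.17. Of 12 genes of microRNA processing and silencing, 11 lay above 0 (50% of all genes), with a median of 0.13. Their median ratio was below wild type in both clones, at -0.10 in the double knockout and -0.23 in the mir-200c knockout. In the mir-141 knockout 8 of 12 lay above 0 (48.1% of all genes), with a median of 0.03. The largest was AGO2, an Argonaute protein, at 0.08 in the double knockout and -0.26 in the mir-200c knockout, and its ratio was 0.04 in the mir-141 knockout.

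Immediate early transcription factors, which growth factor signals switch on within minutes, and ERK feedback phosphatases together had a median of 0.45. Of 20 measured, 16 lay above 0 (50% of all genes), 8 above 0.5 (5.4%) and 3 above 1 (0.952%). EGR1 had 0.26 in the double knockout and -1.45 in the mir-200c knockout, a difference of 1.72, and 0.51 in the mir-141 knockout. ETV4, an ETS factor downstream of ERK, had 0.53 in the double knockout and -1.07 in the mir-200c knockout, and IER3 had 0.61 in the double knockout and -0.49 in the mir-200c knockout. The list's median ratio to wild type was 0.50 in the double knockout and 0.12 in the mir-200c knockout. In EGR1 and ETV4, unlike the list as a whole, the mir-200c knockout lay farther from wild type, below it, than the double knockout did above it. FOS had 0.39 in the double knockout and -0.61 in the mir-200c knockout. JUN and ATF3 went the other way, and both clones were above wild type in each. JUN had 1.48 in the double knockout and 1.83 in the mir-200c knockout, and ATF3 had 1.13 in the double knockout and 1.70 in the mir-200c knockout. The list's median in the mir-141 knockout was 0.16, with 17 of 20 above 0 (48.1% of all genes).

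Secreted luminal, apocrine and mucosal products had a median of 0.40, with 15 of 19 above 0 (50% of all genes) and 9 above 0.5 (5.4% of all genes), and a median of 0.34 in the mir-141 knockout. Besides S100A7, CGA and OLFM4, the inflammation markers S100A8 and LCN2 were high. S100A8 had 0.65 in the double knockout and -0.65 in the mir-200c knockout. LCN2, lipocalin 2, which binds bacterial siderophores, had 2.48 in the double knockout and 1.53 in the mir-200c knockout. TFF1, a mucosal trefoil peptide and oestrogen receptor target, had -0.55 in the double knockout and -2.17 in the mir-200c knockout, so both clones were below wild type. ORM1 and ORM2, near-identical genes of an acute phase protein whose values are uncertain, differed by 1.84 and 1.75, yet stood at -2.06 and -2.02 in the mir-141 knockout. MUC5B and SCGB2A2 were the low exceptions, below -1.7.

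The luminal and oestrogen receptor list had a median of 0.11, with 11 of 17 above 0 (50% of all genes). It had 2 above 0.5 (5.4% of all genes) and 0 below -0.5 (5.43% of all genes). Its lowest members were the luminal keratins KRT19 and KRT8, with differences of -0.47 and -0.35. Among 12 basal markers the median was 0.04, with values spread in both directions. The hair keratin gene KRT81 had 0.80 in the double knockout and -0.83 in the mir-200c knockout, and SFN, 14-3-3 sigma, had -1.14 in the double knockout and 0.32 in the mir-200c knockout. Closely similar keratin genes may share reads.

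Genes of the actin cytoskeleton and focal adhesions were lower in the double than in the mir-200c knockout in 29 of 35 measured (50% of all genes), with a median of -0.20. The median ratio to wild type was 0.12 in the double knockout and 0.41 in the mir-200c knockout, and the mir-141 knockout had 0.08. TPM1, a tropomyosin, had -0.53 in the double knockout and 0.84 in the mir-200c knockout. MYH10, non-muscle myosin IIB, had 0.12 in the double knockout and 1.21 in the mir-200c knockout. EZR, ezrin, which ties membrane to actin and lies in a block of chromosome 6, had -0.05 in the double knockout and 0.80 in the mir-200c knockout. With TAGLN and PARVB, 4 members were below -1 (0.822% of all genes). None lay above 0.5, and the highest was the calponin gene CNN3 at 0.26.

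Mesenchymal markers and mir-200 family targets formed a single list. Its median ratio to wild type was 0.76 in the double knockout and 1.12 in the mir-200c knockout. Members lay on both sides of wild type in the double knockout, and 10 of 14 differences lay below 0 (50% of all genes), with a median of -0.29. TAGLN and CALD1 are on both this list and that of the actin cytoskeleton. COL5A1, a fibrillar collagen, had -0.09 in the double knockout and 1.29 in the mir-200c knockout. ITGA5, the alpha subunit of the fibronectin receptor, had -0.61 in the double knockout and 0.44 in the mir-200c knockout. NT5E, the ectonucleotidase CD73, was high in both, at 2.45 in the double knockout and 3.39 in the mir-200c knockout. FN1, fibronectin, was almost level, at 1.12 in the double knockout and 1.23 in the mir-200c knockout. SNAI1, a repressor of E-cadherin, was the high exception, at -0.15 in the double knockout and -0.85 in the mir-200c knockout. In the mir-141 knockout this list had a median of 0.31, on the other side of 0. Tight junction and epithelial adhesion genes had a median difference of 0.02, with 17 of 32 above 0 (50% of all genes). CLDN1, a claudin, had the highest difference, at 2.04 in the double knockout and 1.53 in the mir-200c knockout, and MARVELD3, a tight junction protein, the lowest, at 0.10 in the double knockout and 0.64 in the mir-200c knockout. EPCAM, an epithelial adhesion molecule, had -0.05 in the double knockout and 0.06 in the mir-200c knockout, and ERBB2 had -0.14 in both.

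Interferon-stimulated genes were lower in the double than in the mir-200c knockout in 12 of 17 measured (50% of all genes), with a median of -0.20, and 7 lay below -0.5 (5.43% of all genes). Their median ratio was 0.10 in the double knockout and 0.65 in the mir-200c knockout. ISG15, a ubiquitin-like modifier, had -0.24 in the double knockout and 0.95 in the mir-200c knockout. IRF7, a regulator of interferon genes, had -0.19 in the double knockout and 0.69 in the mir-200c knockout. OAS3, a sensor of double-stranded RNA, had 0.33 in the double knockout and 1.03 in the mir-200c knockout. IRF1, IRF9 and IFITM3 lay between -0.02 and 0.05. The list's median in the mir-141 knockout was 0.12.

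Antigen presentation genes had a median of -0.15, and 9 of 13 lay below 0 (50% of all genes). PSMB8, an immunoproteasome subunit, had 0.78 in the double knockout and 1.97 in the mir-200c knockout, and it was also above wild type, at 0.88, in the mir-141 knockout. The class I genes HLA-C and HLA-B differed by -1.09 and -1.04, and as similar, polymorphic genes they are uncertain. B2M, the common light chain of class I molecules, differed by 0.18. Genes driven by NF-kB had a median of -0.04 and went both ways. ICAM1, an adhesion molecule for leukocytes, had 1.26 in the double knockout and 0.20 in the mir-200c knockout, whereas CD40 had -0.10 in the double knockout and 1.01 in the mir-200c knockout.

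Cholesterol synthesis and uptake genes lay below 0 in 15 of 21 measured (50% of all genes), with a median of -0.22. In the mir-141 knockout 16 of 21 lay below 0 (51.9% of all genes), with a median of -0.11. INSIG1, the sterol-regulated retention factor of SCAP, had -0.67 in the double knockout and 0.13 in the mir-200c knockout, with -0.45 in the mir-141 knockout. HMGCS1, an early synthase of the pathway, had -0.27 in the double knockout and 0.42 in the mir-200c knockout, with -0.26 in the mir-141 knockout.

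Cell cycle genes had a median of 0.06, with 28 of 43 above 0 (50% of all genes). Their median ratio to wild type was -0.22 in the double knockout and -0.30 in the mir-200c knockout. In the mir-141 knockout 32 of 43 were below 0 (51.9% of all genes). The checkpoint kinase BUB1 had -0.32 in the double knockout and -0.80 in the mir-200c knockout. Respiratory chain genes had a median of -0.11, with 29 of 47 below 0 (50% of all genes). Their largest value, ATP5A1 at 0.86, belongs to the block of chromosome 18. Hypoxia and glycolysis genes had a median of 0.09, with CA12, a carbonic anhydrase, at 0.35 in the double knockout and -0.58 in the mir-200c knockout, and VEGFA at 0.05 in the double knockout and -0.56 in the mir-200c knockout. Medians of heat shock genes (0.01), the unfolded protein response (0.03), ERBB signalling (0.04), YAP and TEAD targets (0.02) and ribosomal proteins (-0.05) were close to that of all genes. Among neighbours of the microRNA locus, 9 were measured, with a median of 0.07. SPSB2, which encodes an adaptor of a ubiquitin ligase, had 0.11 in the double knockout and 1.03 in the mir-200c knockout, and the other 8 lay between -0.37 and 0.28.

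Markers of other cell types were few in the table, with 3 members each for blood cells, fibroblasts and endothelial cells. Blood markers ran from -1.48 for LCP1 to 0.88 for CD68, fibroblast markers from -1.39 for COL5A1 to 0.60 for COL5A2, and endothelial markers from -0.10 for ESAM to 0.61 for CDH5. Each of these lists had members on both sides of 0. Levels could not be read from ratios, so whether these genes are near 0 was not tested.

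**Figure D4:**
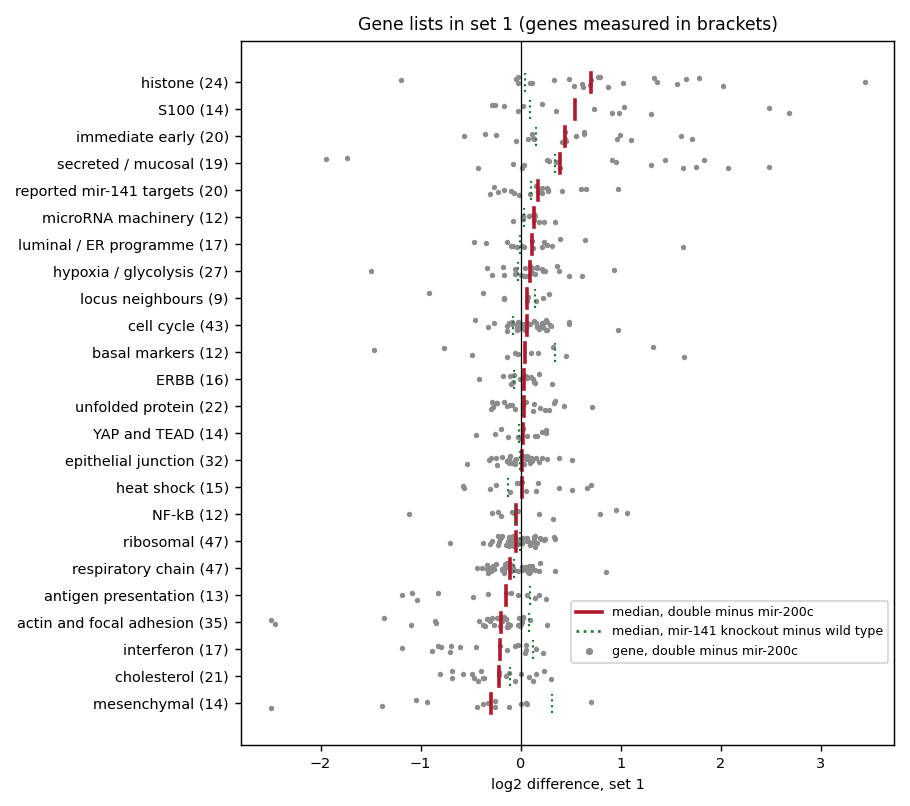
Log2 difference between the double and the mir-200c knockout in set 1 (horizontal axis) for the members of 24 gene lists (grey points), with each list's median as a solid bar and its median ratio in the mir-141 knockout to wild type as a dotted bar. The list of immediate early genes and ERK feedback phosphatases has a median of 0.45 and that of secreted products 0.40. Only the histone and S100 lists, which were added after values were seen, lie higher. The list of mesenchymal markers and mir-200 family targets is lowest (-0.29), with its dotted bar on the other side of 0.

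Neighbouring genes differed together in several chromosome regions of set 1. Blocks were defined, after the data were seen, as runs of windows of 20 neighbouring genes with a median difference beyond 0.35. They held 307 genes (3.32% of all genes), among them 25 (15.2%) of the 164 beyond 1. The rule used these same differences, so that share and the shared direction within blocks follow in part from it. On chromosome 18, 59 genes from ZNF397 to ADNP2 (35241030 to 80147523) had a median difference of 0.76, and 54 of 59 lay above 0 (50% of all genes). Their median ratio was 0.77 in the double knockout and 0.00 in the mir-200c knockout. The mir-141 knockout had a median of 0.51 there, with 53 of 59 above 0 (48.1% of all genes). Both clones that lack mir-141 in set 1 were thus high over this region and the mir-200c knockout was level with wild type. In set 2 as listed the median was 0.01.

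On chromosome 13, 35 genes from MPHOSPH8 to USPL1 had a median of -0.40 in the double knockout and -0.02 in the mir-200c knockout, with -0.22 in the mir-141 knockout. A second block of 27 genes from KBTBD7 to KPNA3 had -0.37 in the double knockout and -0.06 in the mir-200c knockout. On chromosome 8, 30 genes from MCM4 to TRAM1 had -0.46 in the double knockout and -0.03 in the mir-200c knockout. The long arm of chromosome 6 differed in another way. Its 3 blocks of 34, 53 and 49 genes had medians between -0.07 and -0.04 in the double knockout and between 0.31 and 0.36 in the mir-200c knockout, so there the mir-200c knockout was the clone that stood apart. CGA and PPP1R14C lie in these blocks. CGA went against its block, with 2.06 in the double knockout and -0.01 in the mir-200c knockout. A further block of 20 genes on chromosome 6 holds the histone cluster. DNA copy number was not measured, and its part in these values was not tested.

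**Figure D5:**
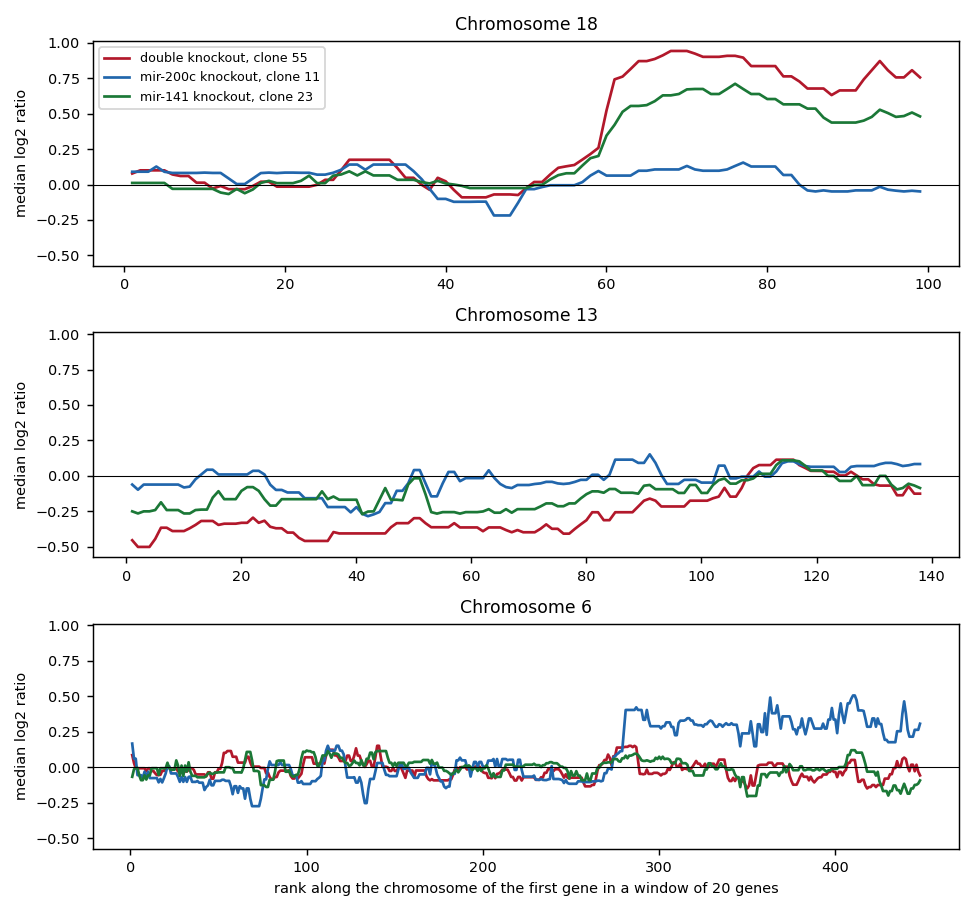
Median log2 ratio to wild type of set 1 in sliding windows of 20 neighbouring genes along chromosomes 18, 13 and 6, by rank of the first gene of a window. The double knockout (red) and the mir-141 knockout (green) are both high over the second part of chromosome 18 and low over much of chromosome 13, whereas the mir-200c knockout (blue) is high over the last part of chromosome 6.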

How the data were processed

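mRNA was selected with oligo(dT) beads, fragmented, ligated to adaptors and read on an Illumina HiSeq, per the labels' protocols. TopHat2 (version not given) and the build GRCh37.p10 were used, per the submitters' processing notes; counting, scaling and filtering are not given in the sources used here. Values that the authors deposited are log2 ratios, each clone against its set's wild type. Depth is unknown, so no interval or floor was given. Columns of other samples numbered 0.

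The planned design assumed levels per library. With ratios, each wild type was set to 0, so the experimental set named in the labels pairs the libraries; within sets the double and mir-200c knockout ratios correlated at 0.630 and 0.697, which includes their shared wild type. Fits used limma 3.58.1 in R 4.3.3 with Benjamini-Hochberg adjustment over 9245 genes (adjusted p under 0.05), and were tested on simulated data. P-values measure the spread between these clones.

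GENCODE 29 (GRCh38) supplied positions and 3′ UTRs for 9226 matched entries, 9011 by RefSeq accession. Genes were named as the 15 highest and 15 lowest differences of set 1, the 12 highest and 12 lowest by the smaller mir-141 contrast, the 6 leading genes with an 8-base match, the largest list members and genes fixed by name. The text describes these and further list members chosen after their values were seen. Members and lists were chosen with earlier results of these data known. Alternatives were other thresholds, centring, moderation, left-out libraries, site types and UTR choices; leaving out block genes was added after seeing the data. A few list members are not reported here.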

Additional observations from a re-analysis of the deposited data

Results flagged for a closer look

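The list of mesenchymal markers and mir-200 family targets had a median of -0.294 for the double relative to the mir-200c knockout in set 1. It was 0.308 for the mir-141 knockout relative to wild type. The medians have opposite signs. Below 0 in the first contrast were 10 of 14 members (50% of all genes), and above 0 in the second 9 of 14 (48.1%). The difference between both contrasts was not tested for the list.

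The median of the interferon list was -0.203 for the double knockout relative to the mir-200c knockout, and 0.120 for the mir-141 knockout relative to wild type. Of 17 members, 12 lay below 0 in the first contrast (50% of all genes) and 12 above 0 in the second (48.1%). The difference was not tested for the list.

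The mir-141-3p score differed by 0.0304 between the double and the mir-200c knockout in set 1 and by -0.0104 in set 2 as listed. The signs are opposite, and the difference between the sets was not tested.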

How the results depend on the processing

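With a threshold of 0.5 in place of 1, 1001 genes of set 1 were counted in place of 164, and without block genes 139. In limma over both sets, 0 genes were called with the replicate block. A fit with no replicate block, which also left out the wild types, called 0. Because both were changed at once, it does not show what the block alone did. Without the mir-200c knockout of set 1, that group keeps 1 library assumed to vary like the others. SLC26A11 then had an estimate of 4.27, higher in the double knockout. Its ratios as listed were 0.27 and 0.12 in the double knockouts and 0.44 and -4.10 in the mir-200c knockouts of set 1 and set 2. Over the alternatives that kept every double and mir-200c knockout library, the smallest limma adjusted p ran from 0.946 upward. The additive model of set 1 has 1 residual degree of freedom, so no library could be left out. The site score, 0.00998 over both sets, was 0.0304 with set 1 alone and reversed to -0.0104 with set 2 alone; set 2 names are in doubt, and the cause was not tested. The likeness of both mir-141 contrasts in set 1 was 0.181 by Pearson, 0.0836 by Spearman, 0.141 without genes beyond 2 and 0.151 without block genes; the cause was not tested. Medians of 19 of 27 lists lay above 0, also after centring and without block genes. Without block genes the blood cell median was 0.47 (0.07 with them) and the histone median 0.79 (0.70 with them). Ratios without counts let genes with few reads weigh as much as others.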

Other observations

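S100 genes and histone genes, lists chosen after their values were seen, are given as values only. Of 14 S100 genes, 10 lay above 0 (50% of all genes) and 4 above 1 (0.952% of all genes), with a median difference of 0.54. S100A9, the partner of S100A8, had 0.23 in the double knockout and -0.68 in the mir-200c knockout. S100A4, linked to cell motility, had 0.67 in the double knockout and -0.31 in the mir-200c knockout. S100A10 and S100A13 were lower in the double knockout, by differences of -0.29 and -0.26. The list's median in the mir-141 knockout was 0.09.

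Of 24 histone genes, 20 lay above 0 (50% of all genes) and 8 above 1 (0.952% of all genes), with a median difference of 0.70, and medians of 0.11 in the double knockout and -0.46 in the mir-200c knockout. HIST1H2AG was the low exception at -1.14 in the double knockout and 0.05 in the mir-200c knockout. Of these genes, 15 lie in the block of chromosome 6. Most histone messages lack a poly(A) tail, the libraries were selected with oligo(dT), and the genes have near-identical copies, so each value is uncertain.

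Among windows best within 15 rows, the row offset between both sets ran from -15 to 14 for the double knockout (28 of 35 windows). For the mir-200c knockout (24 of 35 windows) it ran from -13 to 9. The remaining windows were best farther away, for example at 156 rows for the double and 143 for the mir-200c knockout. The highest Spearman correlation of a window best within 15 rows was 0.271 for the double knockout and 0.298 for the mir-200c knockout. For the mir-141 knockout 4 of 35 windows, and for the difference between double and mir-200c knockout 6 of 35, were best within 15 rows, which is 31 of the 401 offsets searched. The cause was not tested.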
